A study of Mus musculus with 12 samples.

Results

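The 8 genes of intestinal antimicrobial defence were followed in the mouse jejunum: Reg3b, Reg3g, Reg3a, Reg1, Lypd8, Nos2, Saa1 and Retnlb. They were chosen by symbol, through the RefSeq accession of each array probe, and the 8 genes lay on 8 probes among 46522 genes on 56605 probes. Those genes are 22911 symbols and 23611 probes without a symbol. Here and in every share of all genes below, a probe without a symbol counts as 1 gene. The arrays carried jejunal RNA of male mice, with 3 mice in each of 4 groups and 1 mouse per array. The groups were IAP knockout (Akp3-/-) mice given IIAEK, IAP knockout mice given vehicle, wild-type mice given IIAEK and wild-type mice given vehicle. IIAEK is a pentapeptide named by the 1-letter codes of its residues and known for lowering cholesterol, and it was given by mouth at 600 mg/kg body weight per day. The vehicle of all groups was sodium carboxymethylcellulose at 5 g/L. Dosing began at 7 weeks of age and lasted 14 days by the titles and the protocol, although 1 label of the mice on IIAEK counts in weeks. The mice were fasted for 8 h before the jejunum was taken. The strain and the design of the knockout allele are not given in the labels.

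The small intestinal epithelium keeps bacteria at a distance with secreted proteins. Lectins of the Reg3 family are made by enterocytes and Paneth cells, are induced by bacterial signals and by interleukin 22 acting through STAT3, and are known for killing or binding bacteria near the mucus layer. IAP is intestinal alkaline phosphatase, of which Akp3 encodes a form, and it is known for removing phosphate from bacterial lipopolysaccharide. Reg3g is a lectin that kills Gram-positive bacteria, and Reg3b a close relative known for binding Gram-negative bacteria. Reg3a is a further lectin of the family, and Reg1 is a secreted regenerating protein that the pancreas also makes. Lypd8 is a surface-anchored protein that binds flagellated bacteria, Nos2 the inducible nitric oxide synthase, Saa1 an acute-phase serum amyloid A, and Retnlb the goblet cell protein RELM-beta, which damages Gram-negative bacteria.

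The Reg genes sit side by side on chromosome 6, in the order Reg3b, Reg3d, Reg3a, Reg2, Reg1, a pseudogene (Gm52853) and Reg3g. Lypd8 and Nos2 lie on chromosome 11, Saa1 on chromosome 7 and Retnlb on chromosome 16. The promoters of the 3 Reg3 members are shown because the levels of Reg3b and Reg3g varied together from array to array. Each is the 250 bases before the annotated start, read 5′ to 3′ on the gene's strand, from RefSeq on build GRCm38.p6. Capitals mark matches, on either strand, to the motifs named after the sequences. The Reg3b window is chr6:78370635-78370884 on the plus strand, the Reg3g window chr6:78468875-78469124 on the minus strand and the Reg3a window chr6:78380459-78380708 on the plus strand.
Reg3b: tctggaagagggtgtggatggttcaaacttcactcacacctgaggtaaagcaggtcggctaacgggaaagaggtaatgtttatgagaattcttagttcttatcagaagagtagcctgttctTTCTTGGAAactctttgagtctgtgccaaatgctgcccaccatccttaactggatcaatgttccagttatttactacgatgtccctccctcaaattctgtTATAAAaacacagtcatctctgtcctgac
Reg3g: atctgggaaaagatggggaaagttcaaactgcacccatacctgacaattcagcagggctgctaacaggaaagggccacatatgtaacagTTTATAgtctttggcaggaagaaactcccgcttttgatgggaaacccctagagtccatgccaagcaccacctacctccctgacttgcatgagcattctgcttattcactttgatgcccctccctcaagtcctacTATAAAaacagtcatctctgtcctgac
Reg3a: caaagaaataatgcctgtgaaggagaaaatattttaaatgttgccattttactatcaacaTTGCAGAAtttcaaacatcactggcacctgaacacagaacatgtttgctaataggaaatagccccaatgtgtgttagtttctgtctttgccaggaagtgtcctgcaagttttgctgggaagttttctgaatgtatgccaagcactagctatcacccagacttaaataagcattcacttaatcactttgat

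Reg3b held TTCNNNGAA, the letters of a STAT site, as TTCTTGGAA beginning 129 bases before the start, and these letters occurred in 7.02% of the 32851 promoter windows of the table. TATAAA, the TATA box, began 29 bases before the start in Reg3b and 27 bases before it in Reg3g, and occurred in 12.4% of windows on either strand. Reg3g had a second match to it on the other strand at 161. Reg3a held TTGCNNAA, the letters of a C/EBP site, as TTGCAGAA at 190, and 9.56% of windows held it. The windows of 300 bases were aligned with free ends, and identity was taken over the aligned columns alone. Reg3b and Reg3g were 69.5% identical over 308 columns, Reg3g and Reg3a 70.2% over 262 and Reg3b and Reg3a 64.2% over 268. For pairs of unlike families, Reg1 and Saa1 had 55.7% over 255 columns and Reg3g and Lypd8 53.6% over 338. Reg3b and Lypd8 had 68.2%, but over 22 columns. The annotated starts of Reg3b and Reg3g fell on the same column of their alignment. That of Reg3a fell 47 bases upstream of the Reg3g start and 49 bases upstream of the Reg3b start, so its printed window ends before the stretch where the others hold TATAAA. A match is a description of letters and not of binding.

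Levels are log2 signals with the array's own 75th percentile set to 0, and n = 3 arrays per group throughout. The 75th percentile was 575 to 816 intensity units. Between 59.99% (knockout vehicle replicate 3) and 67.1% (knockout IIAEK replicate 3) of the spots exceeded background clearly, with no saturated spot. Akp3, the targeted gene, was well above background on 0 of 6 knockout arrays and on 5 of 6 wild-type arrays. The arrays lay on 2 slides, each also 1 scan: slide 1 held replicates 1 and 2 of both knockout groups and replicate 1 of both wild-type groups, and slide 2 the rest. Some arrays held the same end of their group in most of the 7 genes tested. On slide 2, knockout IIAEK replicate 3 was the highest of its group in 5, knockout vehicle replicate 3 the lowest of its group in 6, and wild-type IIAEK replicate 3 the highest of its group in 5. On slide 1, replicate 1 of knockout IIAEK and replicate 1 of wild-type IIAEK were each the lowest of their group in 5. Enterocyte marker genes were measured on every array (12 of 12 tested), with a list mean between 6.26 and 6.77. A mean of 19 exocrine pancreas genes out of 20 listed, taken as the deviation from the 12-array mean, was 7.51 in wild-type IIAEK replicate 3 and 3.41 in knockout vehicle replicate 3, against -2.31 to 0.75 on the other 10 arrays. The mouse pancreas is known to express Reg1, Reg2 and Reg3d as well. In whole tissue, fewer cells of a type and less RNA per cell cannot be told apart.

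**Figure D1:**
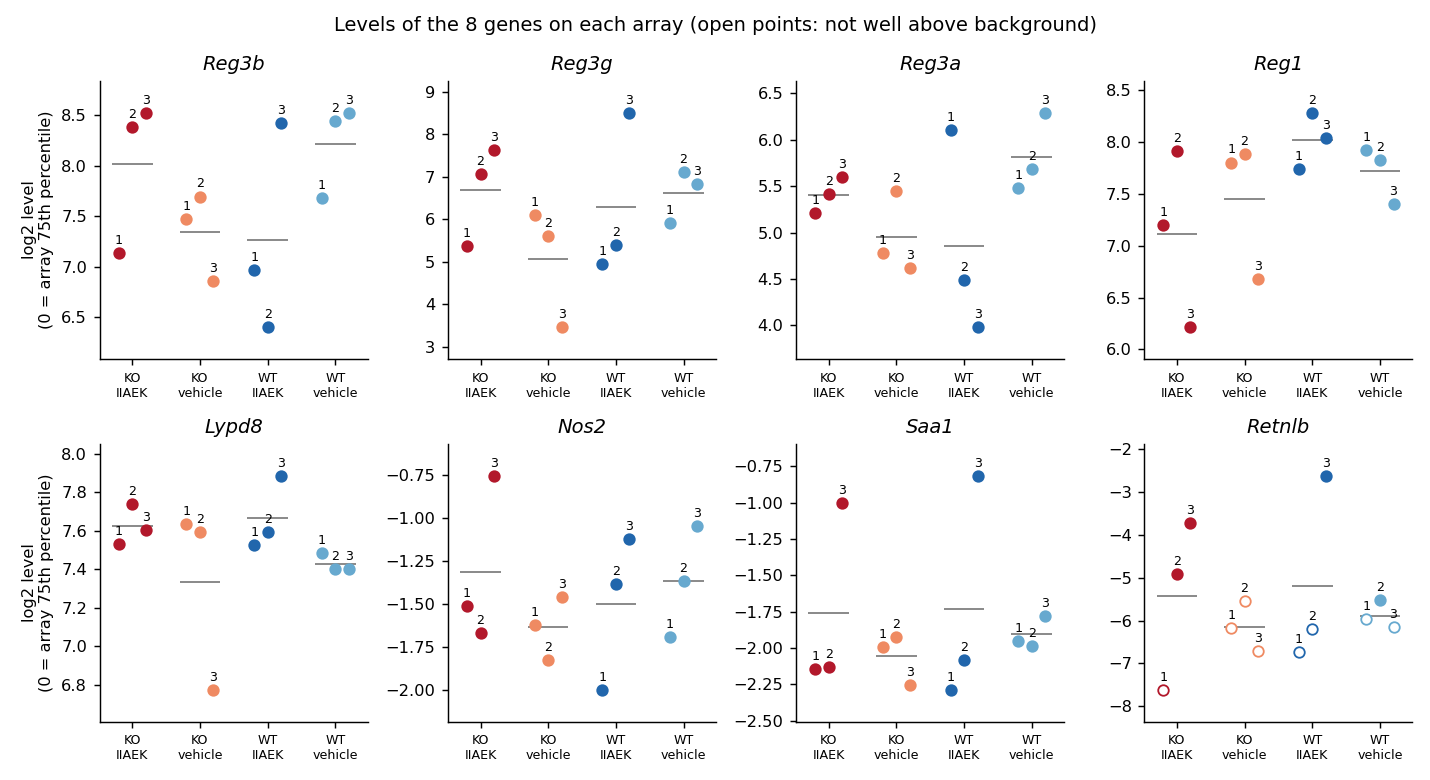
Log2 level of each of the 8 genes on each array (y axis, 0 is the 75th percentile of the array) by group (x axis), with replicate numbers beside the points, group means as lines and open points where the probe was not well above background. Reg3g spans 3.47 to 8.50 over the 12 arrays and Lypd8 6.77 to 7.89; y axes differ between panels.

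Of the 8 genes, 7 were well above background on all 12 arrays and were tested; Retnlb was above background on 4 arrays. None of the 7 passed the threshold over all genes (limma, Benjamini-Hochberg adjusted p under 0.05) in any comparison. The same held for nearly every gene on the array: 0% of the 27565 genes tested passed for IIAEK in knockout mice, IIAEK in wild-type mice, knockout against wild type on IIAEK, knockout against wild type on vehicle, the interaction and IIAEK over both genotypes, and 0.00363% for genotype over both treatments. The differences below are therefore given as values with their errors, and none is a call. At an unadjusted p under 0.05 by limma the members numbered 0 of 7 for IIAEK in the knockout (4.42% of all genes), 0 of 7 for IIAEK in wild type (13% of all genes), 1 of 7 for genotype on IIAEK (7.66%), 0 of 7 for genotype on vehicle (11.4%), 2 of 7 for the interaction (15.1%), 0 of 7 for genotype over both treatments (5.37%) and 0 of 7 for IIAEK over both genotypes (3.4%). The arrays of the compared groups did not overlap in 0 of 7 members for IIAEK in the knockout (7.55% of all genes), 1 of 7 for IIAEK in wild type (25.3%), 0 of 7 for genotype on IIAEK (9.42%) and 1 of 7 for genotype on vehicle (23.7%).

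Reg3g was the most variable of the 7 genes tested. Its level was 5.37, 7.07 and 7.63 in knockout mice on IIAEK, against 6.10, 5.60 and 3.47 in knockout mice on vehicle. In wild-type mice it was 4.95, 5.40 and 8.50 on IIAEK, against 5.91, 7.10 and 6.82 on vehicle. The highest array was wild-type IIAEK replicate 3 and the lowest knockout vehicle replicate 3, 32.5-fold apart, and the groups overlapped within both genotypes. IIAEK differed from vehicle by 1.63 in the knockout (SE 0.94, 95% CI -0.43 to 3.69, adjusted p = 0.910 by limma) and by -0.33 in wild type (SE 0.94, 95% CI -2.39 to 1.73, adjusted p = 0.870 by limma). The knockout difference was 0.37 within slide 1 (2 arrays a side) and 4.16 within slide 2 (1 array a side), and 0.84 without knockout vehicle replicate 3. In wild type it was -0.96 for slide 1 alone, -0.016 for slide 2 alone and -1.44 when IIAEK replicate 3 was left out. On vehicle, the knockout differed from wild type by -1.55 (SE 0.94, adjusted p = 0.512 by limma), and by -0.76 without knockout vehicle replicate 3. Within slides this was -0.057 on slide 1 and -3.49 on slide 2. On IIAEK the genotypes differed by 0.41 (SE 0.94, adjusted p = 0.906 by limma), with a value of 1.52 once wild-type IIAEK replicate 3 was left out.

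Reg3b was 7.14, 8.39 and 8.52 in knockout mice on IIAEK, against 7.47, 7.69 and 6.86 in knockout mice on vehicle. The wild-type arrays stood at 6.97, 6.40 and 8.42 on IIAEK, against 7.68, 8.45 and 8.52 on vehicle. The 5 highest arrays lay between 8.39 and 8.52, drawn from 3 of the 4 groups, and no knockout vehicle array was among them. IIAEK differed from vehicle by 0.67 in the knockout (SE 0.50, adjusted p = 0.910 by limma) and by -0.95 in wild type (SE 0.50, adjusted p = 0.412 by limma). The knockout value was 0.42 without IIAEK replicate 3 and 1.11 without IIAEK replicate 1. In wild type the value was -1.53 without IIAEK replicate 3 and -0.52 without IIAEK replicate 2. On vehicle the knockout was at a mean of 7.34 ± 0.43, against 8.22 ± 0.46 in wild type (SD), a difference of -0.88 (SE 0.50, adjusted p = 0.492 by limma). On IIAEK it was at 8.02 ± 0.76, against 7.26 ± 1.04 in wild type (SD), a difference of 0.75 (SE 0.50, adjusted p = 0.689 by limma). That was 0.32 when replicate 2 of wild-type IIAEK was left out, and 1.33 when its replicate 3 was.

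Reg3a was 5.21, 5.41 and 5.60 in knockout mice on IIAEK, against 4.78, 5.45 and 4.62 in knockout mice on vehicle. In wild-type mice it was 6.10, 4.49 and 3.98 on IIAEK, against 5.48, 5.68 and 6.29 on vehicle. The wild-type IIAEK arrays spread over 4.35-fold, and the array lowest in Reg3a, replicate 3, was the highest of all 12 in Reg3g. On vehicle all 3 knockout arrays lay below all 3 wild-type arrays, the only 1 of 7 genes where the groups did not overlap, while 23.7% of all tested genes were so separated. The nearest arrays were at 5.45 in the knockout and 5.48 in wild type. The genotype difference on vehicle was -0.86 (SE 0.45, adjusted p = 0.470 by limma). It was -0.36 within slide 1 and -1.37 within slide 2. IIAEK differed from vehicle by 0.46 in the knockout (SE 0.45, adjusted p = 0.911 by limma) and by -0.96 in wild type (SE 0.45, adjusted p = 0.390 by limma). The knockout value was 0.29 without vehicle replicate 3 and 0.71 without vehicle replicate 2. The wild-type difference was -1.58 without IIAEK replicate 1, -0.52 without IIAEK replicate 3, which was high in pancreas genes, and -0.59 with the pancreas list as a covariate. It was 0.63 within slide 1, from 1 array a side, and -1.75 within slide 2, from 2 a side. On IIAEK the genotypes differed by 0.55 (SE 0.45, adjusted p = 0.730 by limma), by 0.11 when replicate 3 of wild-type IIAEK was left out and by 1.17 when its replicate 1 was. Over the 12 arrays Reg3a and the pancreas list correlated at Pearson r = -0.70 and Spearman rho = -0.39, the largest Pearson value in size of the 7 genes with that list. Other lists came as close to Reg3a: smooth muscle had r = -0.72 and rho = -0.65, and ileum and colon r = 0.64 and rho = 0.65. The part of pancreas RNA in the Reg3a values was not tested beyond the covariate and the left-out arrays.

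The interaction asks whether the IIAEK difference itself differs between knockout and wild type. For the 3 Reg3 lectins the knockout difference exceeded the wild-type one: by 1.96 for Reg3g (SE 1.33, 95% CI -0.95 to 4.88, adjusted p = 0.469 by limma), 1.63 for Reg3b (SE 0.71, 95% CI 0.064 to 3.19, adjusted p = 0.324 by limma) and 1.41 for Reg3a (SE 0.64, 95% CI 0.017 to 2.81, adjusted p = 0.328 by limma). Reg3b and Reg3a were the 2 of 7 genes with an unadjusted p under 0.05 (0.0427 and 0.0477 by limma), beside 15.1% of all genes at that level. Within slide 1 the interaction was 1.33 for Reg3g, 0.90 for Reg3b and -0.43 for Reg3a. Within slide 2 it was 4.17 for Reg3g, 2.73 for Reg3b and 2.73 for Reg3a. With the pancreas list as a covariate it was 2.44 for Reg3g, 1.91 for Reg3b and 0.75 for Reg3a. Without the 2 arrays high in pancreas genes it was 2.28 for Reg3g, 1.97 for Reg3b and 0.81 for Reg3a. Leaving out 1 array moved the Reg3g value between 1.17, when knockout vehicle replicate 3 was left out, and 3.07, when replicate 3 of wild-type IIAEK was. The 4 comparisons share arrays, so the vehicle and IIAEK differences of a gene are not independent of its interaction.

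Marker lists of several other cell types lay mostly to 1 side of 0 in the same interaction, with 0 of their genes passing after adjustment. Of all genes tested, 15.1% had an unadjusted p under 0.05 by limma in it. Genes of 1 list were read on the same arrays, so the counts below are not of independent results. All 9 Paneth cell genes tested lay above 0 (median 1.08, all genes 0.057), 6 of them with an unadjusted p under 0.05 by limma. Of 12 B and plasma cell genes 9 lay below 0 (median -3.08), 8 of them with an unadjusted p under 0.05 by limma. All 10 smooth muscle genes lay below 0 (median -0.89), 5 of them with an unadjusted p under 0.05 by limma. Exocrine pancreas genes had 1 above 0 and 18 below (median -4.34), with 0 at that level. Enterocyte genes had 10 above and 2 below (median 0.33), with 2 at that level, and goblet cell genes 7 above and 2 below (median 0.27), with 3. The T and innate lymphoid cell list had 6 above and 5 below, as had the macrophage and neutrophil list. The mean level of the B and plasma cell list was -2.52 to -1.90 in knockout mice on IIAEK, against -0.24 to 0.33 in knockout mice on vehicle, and -1.96 to 0.39 in wild-type mice on IIAEK, against -2.47 to 0.074 in wild-type mice on vehicle. The mean level of the smooth muscle list was 1.16 to 1.76 in knockout mice on IIAEK, against 1.31 to 1.77 in knockout mice on vehicle, and 1.39 to 2.46 in wild-type mice on IIAEK, against 0.75 to 1.33 in wild-type mice on vehicle. The part of these cell types in the Reg3 values was not tested.

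**Figure D2:**
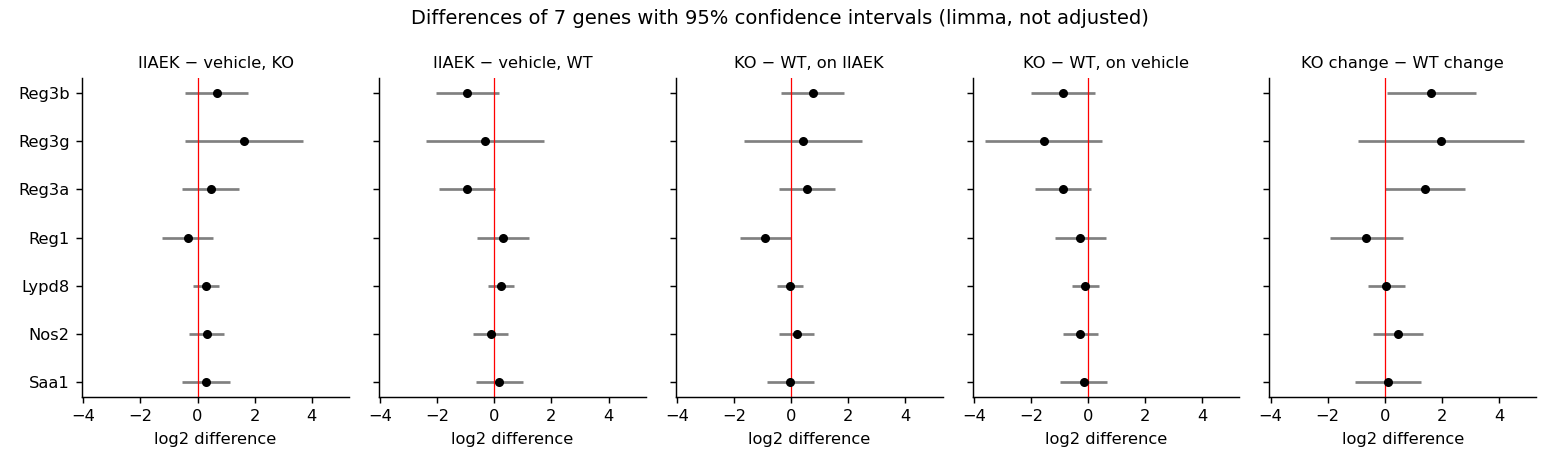
Log2 difference (x axis) of the 7 genes tested (y axis) in 5 comparisons, with points for the limma estimate and bars for the unadjusted 95% confidence interval. The intervals of Reg3b and Reg3a stay above 0 in the interaction and that of Reg1 below 0 for knockout against wild type on IIAEK, and no gene passed after adjustment over all genes.

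Reg1 was 7.20, 7.92 and 6.22 in knockout mice on IIAEK, against 7.74, 8.28 and 8.04 in wild-type mice on IIAEK. On vehicle it was 7.80, 7.88 and 6.68 in the knockout, against 7.92, 7.83 and 7.40 in wild type. The 2 lowest arrays were replicate 3 of each knockout group. On IIAEK the genotypes differed by -0.91 (SE 0.41, 95% CI -1.81 to -0.012, unadjusted p = 0.0475, adjusted p = 0.647 by limma), the 1 of 7 genes with an unadjusted p under 0.05, beside 7.66% of all genes. Without knockout IIAEK replicate 3 it was -0.46, within slide 1 it was -0.18 and within slide 2 it was -1.94. On vehicle the difference was -0.27 (SE 0.41, adjusted p = 0.797 by limma), and 0.12 without knockout vehicle replicate 3. IIAEK differed from vehicle by -0.34 in the knockout (adjusted p = 0.922 by limma) and 0.30 in wild type (adjusted p = 0.719 by limma), both with SE 0.41. Over the 12 arrays Reg1 and the pancreas list correlated at Pearson r = 0.16 and Spearman rho = 0.40. Of the 2 arrays high in pancreas genes, wild-type IIAEK replicate 3 had the second highest level of Reg1 and knockout vehicle replicate 3 the second lowest.

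Lypd8 held the narrowest range of the 7 genes tested. It was 7.53, 7.74 and 7.60 in knockout mice on IIAEK, against 7.64, 7.59 and 6.77 in knockout mice on vehicle. Wild-type mice had 7.52, 7.59 and 7.89 on IIAEK, against 7.49, 7.40 and 7.40 on vehicle. All but 1 of the 12 arrays lay between 7.40 and 7.89, and knockout vehicle replicate 3 was the exception. All 3 wild-type IIAEK arrays lay above the wild-type vehicle arrays, the 1 of 7 genes so separated, while 25.3% of all genes were. The difference was 0.24 (SE 0.21, adjusted p = 0.578 by limma). In the knockout IIAEK differed by 0.29 (SE 0.21, adjusted p = 0.910 by limma), and by 0.0097 without knockout vehicle replicate 3.

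Nos2 was -1.51, -1.67 and -0.75 in knockout mice on IIAEK, against -1.62, -1.83 and -1.46 in knockout mice on vehicle. In wild-type mice it was -2.0, -1.38 and -1.12 on IIAEK, against -1.69, -1.36 and -1.05 on vehicle. The groups overlapped in every comparison. IIAEK differed from vehicle by 0.32 in the knockout (SE 0.28, adjusted p = 0.910 by limma), a value of 0.044 without knockout IIAEK replicate 3, and by -0.13 in wild type (SE 0.28, adjusted p = 0.824 by limma). Among 20 genes of endotoxin sensing and of the inducers of Nos2, such as Tlr4, the lipopolysaccharide receptor, 18 were tested. For IIAEK in the knockout 9 lay above 0 and 9 below (median 0.0099, all genes 0.0065), and in wild type 12 above and 6 below (median 0.15, all genes -0.062), with 0 passing in either.

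Saa1 separated 2 arrays from the rest. It was -2.15, -2.13 and -1.0 in knockout mice on IIAEK, against -1.99, -1.93 and -2.25 in knockout mice on vehicle. In wild-type mice it was -2.29, -2.08 and -0.82 on IIAEK, against -1.95, -1.99 and -1.78 on vehicle. Replicate 3 on IIAEK held the 2 highest levels of the 12 arrays, 1 in each genotype, and the other 4 IIAEK arrays lay between -2.29 and -2.08. IIAEK differed by 0.30 in the knockout (SE 0.38, adjusted p = 0.924 by limma), and by -0.081 without IIAEK replicate 3. In wild type it differed by 0.18 (SE 0.38, adjusted p = 0.824 by limma), and by -0.28 without IIAEK replicate 3. Saa1 and Saa2 are near-identical copies, so their probes may share signal. Saa2 showed the same 2 arrays, at -3.03 in knockout IIAEK replicate 3 and -1.77 in wild-type IIAEK replicate 3, against -6.19 to -4.61 on the other 10. Saa3, the form made by epithelium and macrophages, was 0.33 on knockout IIAEK replicate 3 and -0.63 on wild-type IIAEK replicate 3, against -4.87 to -0.71 elsewhere. The mean of 6 liver genes was -1.11 in knockout IIAEK replicate 3, the highest of 12, and -1.87 in wild-type IIAEK replicate 3, against -2.28 to -1.28 on the other arrays. The part of such RNA in the Saa values was not tested.

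Retnlb was well above background on 4 of 12 arrays: knockout IIAEK replicates 2 and 3 at -4.91 and -3.73, wild-type IIAEK replicate 3 at -2.62 and wild-type vehicle replicate 2 at -5.52. On the other 8 arrays, including all 3 of knockout vehicle, it was not well above background, between -7.61 and -5.54. The 3 brightest arrays were all from mice given IIAEK, and 3 of the 6 IIAEK arrays were not above background. No fold change is given, since no group had it above background on all 3 arrays.

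The spread between mice of 1 group was large for these genes. The within-group SD was 1.36 for Reg3g, above that of 99.6% of tested genes, 0.72 for Reg3b (96.4%), 0.64 for Reg3a (94.7%), 0.58 for Reg1 (92.8%), 0.53 for Saa1 (90.8%), 0.38 for Nos2 (78.7%) and 0.27 for Lypd8 (54.2%). The median over all tested genes was 0.25. 

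Reg3b and Reg3g varied together across the 12 arrays. Their levels correlated at Pearson r = 0.84 and Spearman rho = 0.86, at 0.91 within groups, at 0.93 within slide 1 and 0.82 within slide 2, and at 0.89 without the 2 arrays farthest from the median of Reg3b. Of the 28 pairs of the 8 genes, the highest Pearson r was that of Saa1 and Retnlb (0.88, and 0.40 without the 2 arrays farthest from the median of Retnlb), with Retnlb below background on most arrays. Reg3g and Retnlb had 0.82. Reg3g and Saa1 had 0.78 (0.30 within slide 1 and 0.83 within slide 2), and Nos2 and Saa1 had 0.74. Reg3g and Lypd8 had 0.72, with 0.81 within slide 1, 0.86 within slide 2 and 0.011 without the 2 arrays farthest from the median of Reg3g. Reg3a and Reg3b had a Pearson r of 0.30 and a Spearman rho of 0.48, with -0.24 within slide 1, 0.52 within slide 2, -0.050 within groups and 0.47 without the 2 arrays farthest from the median of Reg3a. Reg3a and Reg3g had a Pearson r of -0.0069 and a Spearman rho of 0.091, with -0.45 within slide 1, 0.15 within slide 2, -0.28 within groups and 0.46 without the same 2 arrays, so the value near 0 depended on them. The points share a slide, an array and a normalization, and no p is given. Probes of close paralogs may also share signal, which would raise such a correlation, and this was not tested.

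**Figure D3:**
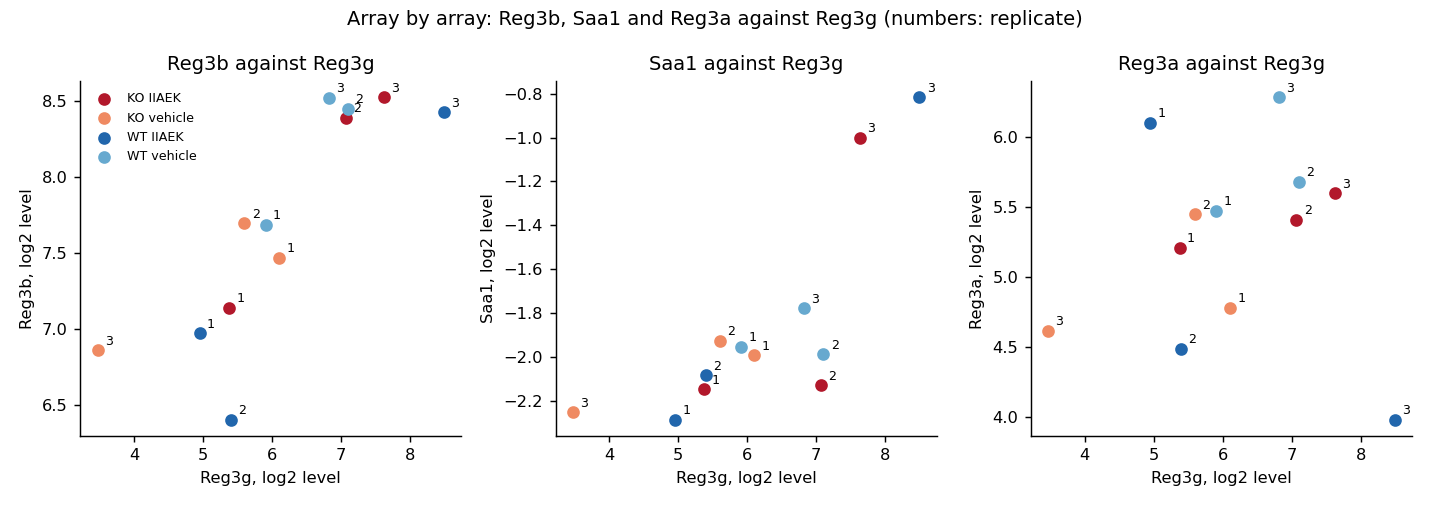
Log2 levels of Reg3b, Saa1 and Reg3a (y axes) against Reg3g (x axis) on the 12 arrays, coloured by group and numbered by replicate. Reg3b is higher on arrays where Reg3g is (r = 0.84), Saa1 is set apart by 2 arrays (r = 0.78) and Reg3a has r = -0.0069, or 0.46 without the 2 arrays farthest from the median of Reg3a.

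Over 14747 named genes, the 3 whose level was most like each member by Pearson r were, for Reg3g, Gpx2-ps1 (0.89), Cenpe (0.87) and Saa3 (0.87), and, for Reg3b, Bcl2l15 (0.87), Mlana (0.84) and Rsl1d1 (0.83). For Reg3a they were Aldh1a1 (0.95), a retinal dehydrogenase, Trim38 (0.93) and Slc5a4b (0.91). For Reg1 they were AU022252 (0.93), Irf7 (0.93), an interferon response factor, and Hsdl1 (0.92). For Lypd8 they were Atad2 (0.95), Zdhhc3 (0.93) and Oxct1 (0.91). For Nos2 they were Vmn1r30 (0.90), Amhr2 (0.89) and Chil3 (0.88), and for Saa1 Saa2 (0.93), Mgat4c (0.91) and Syne4 (0.89). These are the highest of 14747 values for each member, so they are high by selection. Chil3, Mgat4c, Saa2, Saa3 and Mlana were not well above background on every array. Of the 3 knockout vehicle arrays, Mgat4c was well above background on 0, and Chil3 and Saa2 on 1 each.

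**Figure D4:**
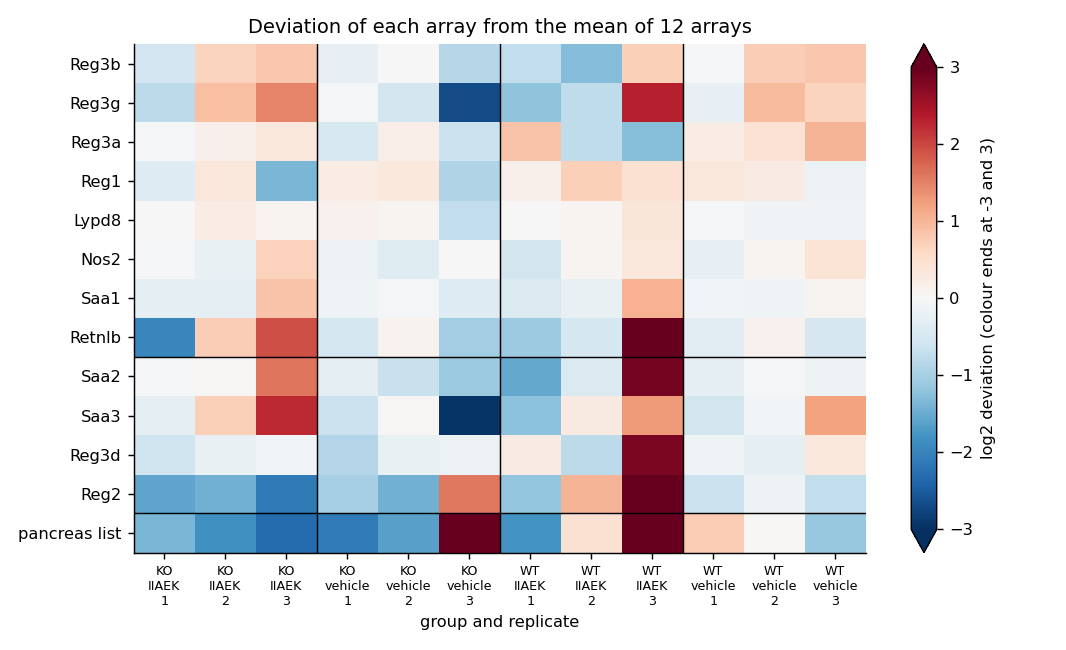
Log2 deviation of each array from the 12-array mean (colour, ends at -3 and 3) for the 8 genes, Saa2, Saa3, Reg3d, Reg2 and the mean of 19 pancreas genes (rows) by group and replicate (columns). Replicate 3 stands out in 3 groups. Knockout IIAEK and wild-type IIAEK replicate 3 are high in Reg3g, Saa1 and Retnlb. Knockout vehicle replicate 3 is the lowest array in Reg3g. In Saa1 and Retnlb it is below the 12-array mean but not the lowest. Wild-type IIAEK replicate 3 is also high in Reg2, Reg3d and the pancreas list, and knockout vehicle replicate 3 is high in Reg2 and the pancreas list.

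Reg2 and Reg3d, neighbours of the members in the Reg cluster, were highest on an array high in pancreas genes. Reg2, a regenerating protein of the pancreas, was 4.47 in wild-type IIAEK replicate 3 and -1.63 in knockout vehicle replicate 3, the arrays high in pancreas genes, against -5.33 to -2.18 on the other 10. Reg3d was 2.96 in wild-type IIAEK replicate 3, against -0.75 to 0.44 on the other 11. On wild-type IIAEK replicate 3, Reg3g was the highest of the 12 arrays and Reg1 the second highest. Knockout vehicle replicate 3 was among the lowest 3 of 12 in 6 of the 7 genes tested.

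Interleukin 22 and STAT3 are the pathway best known for driving Reg3 genes. Il22, Il23a and Il23r, the cytokine and its upstream signal and receptor, were each well above background on at most 1 of 12 arrays. Of 19 genes of this axis 14 were tested. For IIAEK in the knockout 6 lay above 0 and 8 below (median -0.031, all genes 0.0065), in wild type 6 above and 8 below (median -0.061, all genes -0.062), and in the interaction 5 above and 9 below (median -0.15, all genes 0.057), with 0 passing in each. Socs3, a STAT3-induced inhibitor of cytokine signalling, was 2.58, 1.91 and 2.06 in knockout mice on IIAEK, against 2.07, 1.85 and 1.55 in knockout mice on vehicle. Wild-type mice had 1.28, 1.12 and 1.80 on IIAEK, against 1.78, 2.13 and 2.47 on vehicle. Its interaction was 1.08 (SE 0.36, adjusted p = 0.310 by limma). Il17ra, an interleukin 17 receptor chain, had an interaction of -0.56 (SE 0.21, adjusted p = 0.310 by limma), and Il6st, the receptor chain gp130, one of -0.37 (SE 0.22, adjusted p = 0.409 by limma). Il22ra1, the epithelial interleukin 22 receptor, was 0.94 higher in the knockout on vehicle as a value (SE 0.42, adjusted p = 0.439 by limma).

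Other epithelial defence genes, 14 tested of 20 listed, had 12 above 0 and 2 below for IIAEK in the knockout (median 0.40, all genes 0.0065), and 5 above and 9 below in wild type (median -0.13, all genes -0.062). In the interaction 11 lay above 0 and 3 below (median 0.42, all genes 0.057), and 0 passed in each. Ang4, an antimicrobial ribonuclease of Paneth cells, differed by 1.21 for IIAEK in the knockout (SE 0.48, adjusted p = 0.910 by limma), and Saa3 by 2.08 (SE 0.88, adjusted p = 0.910 by limma). In knockout vehicle replicate 3 Saa3 was -4.87 and not well above background, against -2.57 and -1.87 in replicates 1 and 2. Reg4, a related lectin, had an interaction of 1.09 (SE 0.47, adjusted p = 0.322 by limma). The mean of this list was 2.01 in knockout IIAEK replicate 3 and 2.29 in wild-type IIAEK replicate 3, against 1.0 to 1.64 on the other 10 arrays, the same 2 arrays as for Saa1. The list holds Saa2 and Saa3, and also Reg2 and Reg3d. In wild-type IIAEK replicate 3, the array highest in pancreas genes, Reg2 was 4.47 and Reg3d 2.96, while Reg4 was 2.66, its lowest of the 12 arrays. The mean without these genes was not computed, so it does not show that the list as a whole was high there.

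Paneth cell genes, 9 tested of 12 listed, had 8 above 0 and 1 below for IIAEK in the knockout (median 0.91, all genes 0.0065), and 0 above and 9 below in wild type (median -0.27, all genes -0.062). In the knockout 7 of the 9 had an unadjusted p under 0.05 by limma, beside 4.42% of all genes, and in wild type 0 had. The 9 genes were read on the same arrays, so this count is not of independent results. By array their mean was 6.39, 6.65 and 7.51 in knockout mice on IIAEK. In knockout mice on vehicle it was 6.41, 6.05 and 5.62, so the groups overlapped. Mptx2, a pentraxin of Paneth cells, differed by 1.37 for IIAEK in the knockout (SE 0.53, adjusted p = 0.910 by limma), and Mmp7, which processes defensins, by 0.91 (SE 0.36, adjusted p = 0.910 by limma). None passed. The list mean was 7.51 in knockout IIAEK replicate 3, against 5.62 to 6.75 elsewhere, and 5.62 was knockout vehicle replicate 3, the array lowest in Reg3g. Wild-type IIAEK replicate 3, the array highest in Reg3g, had a list mean of 6.14, a deviation of -0.24 from the mean of the 12 arrays. Over the 12 arrays the list mean correlated with Reg3g at r = 0.55 and with Reg3b at 0.53. Fewer or more Paneth cells in a sample as a part of the Reg3 values was not tested.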

How the data were processed

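Total RNA of each jejunum was labelled with Cy3 and hybridised to a 1-colour Agilent mouse array, per the labels. Per the file headers, Agilent Feature Extraction 10.7.3.1 made the deposited processed signal, an intensity with background subtracted and not scaled between arrays. The authors also deposited a table of log2 values whose centring and scaling are not stated; it served as an alternative (r of at least 0.9997 with the values used). Non-uniform outlier spots (0 to 4 per array) were removed, log2 processed signals were averaged per probe and each array was set to 0 at its 75th percentile. The brightest probe stood for a gene. Tests covered the 27565 genes whose probe exceeded background clearly on every array of some group. Of these, 15812 had a symbol and the rest were single probes without one. The 4 group means were fitted with limma 3.58.1 in R 4.3.3, with Benjamini-Hochberg adjustment across all genes tested (two-sided, threshold 0.05); the script was tested on simulated data. For 1 gene alone, exact permutation of 3 arrays against 3 gives no p below 0.1. Symbols came from a RefSeq table, used for names, chromosomes and gene order; promoters came from RefSeq (GRCm38.p6) and were aligned with Biopython 1.88. The named genes were the 8 members, up to 4 genes of smallest p per list described, the 3 most alike genes per member and Akp3. The members and lists were chosen with earlier results of these data known. Alternatives were another background correction, quantile normalization, other filters and probe rules, the deposited table, slide and replicate blocks, fits of the compared groups alone, pancreas RNA as a covariate or left out, and leaving out each array. The number of arrays limits the precision.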

Additional observations from a re-analysis of the deposited data

How the results depend on the processing

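Across 49 member comparisons (7 genes in 7 comparisons), 1106 values under alternatives were computed: 1030 kept their direction, 76 reversed, and 0 passed the threshold under any alternative, so the number of members passing stayed 0 in each. The 1030 include values that could not change. Each member has 1 probe, above background on all 12 arrays, so other filters and the mean of probes left its difference the same. The replicate block did so too, as did the slide block for IIAEK against vehicle and for the interaction. In 24 of the 49 comparisons the direction held in all alternatives. The interaction of Reg3a, Reg3b and Reg3g kept its direction in all of these, which do not include the values within 1 slide: within slide 1 that of Reg3a was -0.43. With normexp correction, Saa1 for knockout against wild type on IIAEK became 0.030 and Nos2 for genotype over both treatments 0.023. With quantile normalization, the Lypd8 interaction became -0.11 and Reg1 for IIAEK over both genotypes 0.00567. With slide as a block, Saa1 on IIAEK became 0.12, and over both treatments Nos2 became 0.16, Reg3b 0.043 and Saa1 0.056. With the pancreas list as a covariate, Saa1 for IIAEK in wild type became -0.012, Reg3a and Saa1 for genotype on IIAEK -0.11 and 0.31, the Lypd8 interaction -0.011, and over both treatments Nos2, Reg3b and Saa1 0.067, 0.079 and 0.080. Without the 2 arrays highest in pancreas genes, Saa1 for IIAEK in wild type became -0.28, on vehicle Lypd8 and Reg1 by genotype 0.19 and 0.12, on IIAEK Lypd8 and Saa1 0.065 and 0.43, the Lypd8 interaction -0.12, genotype over both treatments 0.13 for Lypd8, 0.012 for Nos2, 0.35 for Reg3b, 0.38 for Reg3g and 0.19 for Saa1, and IIAEK over both genotypes -0.30 for Reg3g and -0.039 for Saa1. The causes were not tested. The number of all genes passing for genotype over both treatments was 1, and 2 with normexp, 4 with quantile normalization, 0 with the filter of 9 arrays, 2 with the mean of probes and 0 without the 2 pancreas-high arrays. Slide as a block gave 1 gene for IIAEK in wild type and 1 for genotype on IIAEK; fits of the compared groups alone gave 14 for IIAEK in the knockout, 1 for genotype on vehicle and 4 for genotype on IIAEK. The labels do not say whether replicate numbers pair the mice. Of 18 same-numbered pairs, 8 had deviations correlating over 0.1, with a median r of 0.066 against -0.0049 for the other pairs. Every replicate 1 lay on slide 1 and every replicate 3 on slide 2, so this check cannot decide on a pairing. With the replicate number as a block, 0 members passed. The Reg3g difference for IIAEK in the knockout was 1.63 (limma adjusted p = 0.858), a difference that this block cannot change. Leaving out 1 array at a time turned the direction, or moved the number of all genes passing, over these ranges. IIAEK in wild type gave 0 to 1 genes passing, Nos2 -0.32 to 0.12, Reg3g -1.44 to 0.34, Saa1 -0.28 to 0.46. IIAEK in the knockout gave Reg1 -0.75 to 0.10, Saa1 -0.081 to 0.49. Genotype on vehicle gave 0 to 2 genes passing, Lypd8 -0.25 to 0.19, Reg1 -0.48 to 0.12. Genotype on IIAEK gave 0 to 2 genes passing, Lypd8 -0.12 to 0.065, Nos2 -0.090 to 0.38, Reg3g -0.26 to 1.52, Saa1 -0.41 to 0.43. The interaction gave Lypd8 -0.23 to 0.20, Saa1 -0.26 to 0.58. Genotype over both treatments gave 0 to 10 genes passing, Lypd8 -0.15 to 0.071, Nos2 -0.18 to 0.056, Reg3a -0.38 to 0.15, Reg3b -0.28 to 0.23, Saa1 -0.28 to 0.14. IIAEK over both genotypes gave 0 to 1 genes passing, Nos2 -0.045 to 0.22, Reg1 -0.22 to 0.20, Reg3b -0.43 to 0.081.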
